A study of Mus musculus with 9 samples.

Results

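The cytosolic ribosomal protein genes encode the proteins of the large (60S) and small (40S) ribosomal subunits. They were taken as the protein-coding genes with symbols of the forms Rpl or Rps followed by a digit, together with Rpsa, Rplp0, Rplp1 and Rplp2. The Rps6k kinase genes and names ending in -ps were left out. The rule gave 86 genes of the 54532 in the table, 52 with large subunit names and 34 with small subunit names. Of these, 77 are standard ribosomal proteins and 8 are paralogs or retrocopies. The remaining 1, Rps19bp1, is named for binding a ribosomal protein and is not one itself. It stays in the counts of small subunit names.

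The RNA came from mouse liver in 3 groups of 3 libraries. Wild-type mice (WT) and Cth knockout mice had drinking water, and further Cth knockout mice had 1% betaine added to it. The enzyme cystathionine gamma-lyase (CTH) releases cysteine from cystathionine, and betaine donates a methyl group to homocysteine. The series asks what CTH does in chronic liver disease. Strain, sex, age and the design of the knockout allele are not given in the sources used here. Whether the 3 libraries of a group come from 3 animals is not stated. Their p-values therefore measure only the spread between these samples, which may be technical.

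Ribosomes are built in the nucleolus from ribosomal RNA and about equal numbers of each ribosomal protein, and protein made in excess of the RNA is degraded. The messenger RNAs of ribosomal proteins are short and abundant. Many begin with a terminal oligopyrimidine (TOP) tract, a C followed by a run of C and T, through which growth signalling by mTORC1 and the RNA-binding protein Larp1 controls their translation and stability. In the liver, with its high output of plasma proteins, ribosomes are a large part of the cell's mass.

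The starts of the members with the smallest p-values in each subunit are shown first, where an entry exists, because this stretch carries the TOP tract. Sequences are from RefSeq promoter entries on GRCm38.p6, which matched 66 of the 86 genes, and cover the 10 bases before the annotated start and the first 20 bases from it on the gene's own strand. Capitals mark a run of at least 5 pyrimidines counted from a C within 3 bases of the start, called a TOP-like start here. Pyrimidines before that C are left unmarked. Windows without capitals hold no such start, but can hold a pyrimidine run elsewhere. Rps6, the substrate of S6 kinase, is included.
Rpl35 (chr2:39005112-39005141, minus strand): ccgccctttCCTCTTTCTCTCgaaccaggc
Rpl27a (chr7:109519185-109519214, plus strand): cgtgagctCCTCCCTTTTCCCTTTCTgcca
Rpl12 (chr2:32961702-32961731, plus strand): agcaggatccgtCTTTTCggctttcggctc
Rpl22l1 (chr3:28805498-28805527, plus strand): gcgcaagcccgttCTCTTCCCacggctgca
Rps6 (chr4:86857348-86857377, minus strand): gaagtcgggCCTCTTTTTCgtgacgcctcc
Rpsa (chr9:120127756-120127785, plus strand): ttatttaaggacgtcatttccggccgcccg
Rps25 (chr9:44407704-44407733, plus strand): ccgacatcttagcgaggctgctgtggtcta
Rps12 (chr10:23787190-23787219, minus strand): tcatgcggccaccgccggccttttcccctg

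TOP-like starts were found in 24 of the 66 matched members (36.4%), in 12.3% of the other 8195 tested genes with an entry and in 11.4% of all 16514 protein-coding entries. The longest marked run among those shown was that of Rpl27a, with 18 pyrimidines. The annotated start is not a measured one. It lay 493 bases from the start of the principal GENCODE transcript for Rpl35 and 575 bases for Rps25. A window without capitals therefore says only that no TOP-like start lies within 3 bases of the annotated start. The Rps12 window holds a pyrimidine run further from it. In the 300-base promoter entries, on both strands, the ETS motif CCGGAAG was present in 24 of 66 members (36.4%), 19.6% of the other tested genes and 12.4% of all entries. The SP1 motif GGGCGG was present in 60.6% of members, 65.4% of the other tested genes and 48.5% of all entries. For the YY1 motif AAGATGG the shares were 13.6%, 7.69% and 6.42%. None of the 3 motifs contains another, and a match is a description of the letters only.

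All libraries stood close in depth, with 15184597 to 17473997 reads recovered from the deposited values. The denominators behind the deposited FPKM were lowest in knockout, at 13513034 to 14892176. They were 15289496 to 18087722 in wild type and 16066719 to 18527795 with betaine. Cth, the knocked-out gene, was at 253.7 ± 33.3 FPKM (SD, n = 3) in wild type, 0.544 ± 0.248 in knockout and 0.470 ± 0.269 with betaine. FPKM is the number of fragments per kilobase of exon, scaled to a common library size. Wild-type replicate 3 stood apart: Xist, the transcript of the inactive X chromosome, was at 26.64 FPKM there and at no more than 0.0124 FPKM in the other 8 libraries. That library also had the lowest median over the ribosomal protein genes, so results are given with and without it. Hepatocyte markers were expressed in every library. The 6 markers of dividing cells summed to 2.2 FPKM at most.

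The ribosomal protein genes took 1.12% to 1.45% of all recovered reads in the wild-type libraries, 1.81% to 1.98% in knockout and 1.44% to 1.73% with betaine. The wild-type and knockout ranges did not overlap, and the betaine range reached into the wild-type range. The summed FPKM of the large subunit genes was 4703 ± 822 in wild type, 7982 ± 636 in knockout and 5699 ± 968 with betaine (SD, n = 3 each). For the small subunit genes the sums were 3492 ± 543, 5574 ± 560 and 3922 ± 673. The ratio of the large to the small sum was 1.30 to 1.38 in wild type, 1.41 to 1.47 in knockout and 1.45 to 1.46 with betaine, so that all 6 knockout libraries lay above all 3 wild-type libraries. Sums are weighted toward the highest genes. The large subunit gene Rplp1 alone averaged 685 FPKM in wild type and 1276 in knockout. By gene, the median log2 change in knockout was 0.77 for the large and 0.71 for the small subunit. The ratio was not recomputed without the highest genes. In bulk liver, fewer cells of a type and less RNA per cell cannot be told apart.

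**Figure D1:**
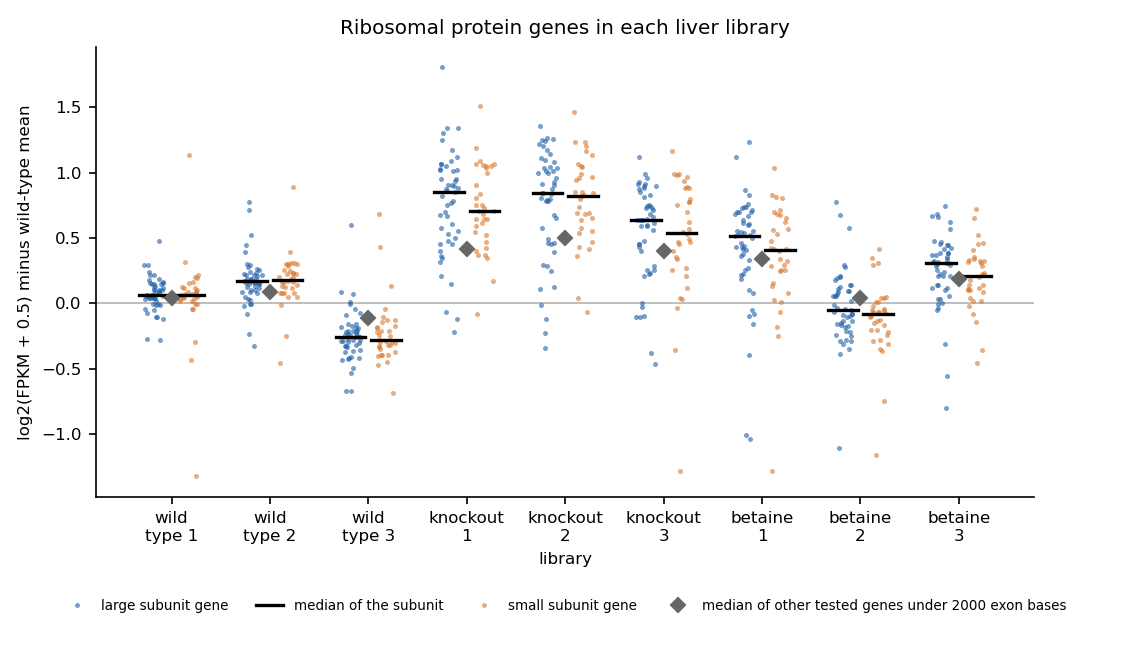
The vertical axis is log2(FPKM + 0.5) of each of the 83 tested ribosomal protein genes minus its wild-type mean, and the horizontal axis gives the 9 libraries. Black bars are subunit medians and diamonds the median of other tested genes under 2000 exon bases; the 3 knockout libraries have the highest subunit medians (0.54 to 0.85), and betaine replicate 2 lies beside the wild types.

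On the log2(FPKM + 0.5) scale, the median difference of the 83 tested members from their wild-type mean was 0.07, 0.17 and -0.26 in wild-type replicates 1 to 3. In the knockout libraries it was 0.76, 0.85 and 0.61. In the betaine libraries it was 0.44, -0.07 and 0.28. Other tested genes under 2000 exon bases ran in the same order of libraries over a narrower range, from -0.11 to 0.09 in wild type, 0.40 to 0.50 in knockout and 0.04 to 0.34 with betaine.

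Among the 77 standard genes, mean FPKM over all libraries ranged from 0.635 (Rps10) to 944 (Rplp1), with a median of 96.4. Scaled to the length of the principal messenger RNA, a chosen annotated transcript of each gene, the middle 50% lay between 147 and 332 FPKM. Rplp1, a stalk protein of the large subunit that helps recruit elongation factors, had the highest level. Its values were 728, 825 and 502 FPKM in wild type, 1258, 1357 and 1214 in knockout and 964, 733 and 912 with betaine. Every knockout value was above every wild-type and every betaine value. Rpl36, a large subunit protein, was second at 467 FPKM over all libraries, with 355, 379 and 237 FPKM in wild type and 676, 730 and 591 in knockout.

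Whether loss of Cth altered these transcripts was tested in knockout against wild type. Of the 83 tested members, 55 rose and 0 fell (limma, adjusted p under 0.05 over all 11852 tested genes), where 12.8% of all tested genes rose and 12.7% fell. The large subunit had 34 of 49 higher with a median log2 change of 0.77, and the small subunit 21 of 34 with a median of 0.71. Over all members the median was 0.75, against 0.015 over all tested genes. The 3 members not tested, Rpl10l, Rpl39l and Rpl3l, were under the minimum mean of 0.5 FPKM. Knockout values lay above all wild-type values for 65 members (23.6% of all tested genes did so), and below them for 0 (23.2%).

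The 55 calls rested partly on single libraries: 13 were left without knockout replicate 2, 35 without knockout replicate 1 and 45 without wild-type replicate 3, with a median of 0.60 in that last fit. The same 13 members were called in every fit that left out 1 library: Rpl12, Rpl17, Rpl22l1, Rpl23a, Rpl27, Rpl27a, Rpl31, Rpl32, Rpl35, Rpl36a, Rps12, Rps25 and Rpsa. Without knockout replicate 2, 3.40% of all tested genes were called higher, and without knockout replicate 1, 7.72% were. Without wild-type replicate 3, 1184 of 11823 tested genes were called higher.

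In the small subunit the smallest p-value was that of Rpsa (ENSMUSG00000032518, chr9:120127689-120132369, plus strand), which is part of the small subunit and also known as the laminin receptor precursor. It was at 125, 134 and 100 FPKM in wild type, 246, 250 and 235 in knockout and 209, 148 and 196 with betaine. The 3 groups did not overlap, with the betaine libraries between the other 2 groups. Rpsa rose by 1.03 ± 0.17 (log2 change ± SE; limma adjusted p = 0.00649), and its window above holds no TOP-like run.

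Rps25 (ENSMUSG00000009927, chr9:44407139-44410427, plus strand), a small subunit protein used by some internal ribosome entry sites, was at 63.8, 61.9 and 50.4 FPKM in wild type. It was at 123, 135 and 115 in knockout and at 93.8, 58.8 and 77.7 with betaine. The knockout libraries lay above all others, and betaine replicate 2 lay within the wild-type range with the other betaine libraries above it. Its change was 1.08 ± 0.18 (limma adjusted p = 0.00678). Rps12 went from 33.9, 35.4 and 31.1 FPKM in wild type to 51.3, 59.8 and 66.9 in knockout, a change of 0.81 ± 0.17 (limma adjusted p = 0.0108). With its copies elsewhere in the genome, which held 36.9% of the family's reads, the change was 0.72 (limma adjusted p = 0.0161).

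In the large subunit the smallest p-value was that of Rpl35 (ENSMUSG00000062997, chr2:39001580-39005624, minus strand), a protein near the exit of the nascent chain tunnel. It was at 66.7, 69.1 and 50.6 FPKM in wild type, 128, 140 and 116 in knockout and 102, 70.7 and 91.7 with betaine. All betaine values were above all wild-type values and below all knockout values. The change in knockout was 1.05 ± 0.18 (limma adjusted p = 0.00678). Rpl27a (ENSMUSG00000046364, chr7:109519147-109522367, plus strand) rose by 1.11 ± 0.20 (limma adjusted p = 0.00785), from 60.2 to 83.2 FPKM in wild type to 149 to 179 in knockout. Rpl12 (ENSMUSG00000038900, chr2:32961559-32965345, plus strand), a protein at the base of the stalk, rose by 0.97 ± 0.17 (limma adjusted p = 0.00782), from 27.2 to 41.1 FPKM to 67.5 to 73.3. Rplp1 rose by 0.93 ± 0.20 (limma adjusted p = 0.0131), and Rpl36 by 1.06 ± 0.25 (limma adjusted p = 0.0158).

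**Figure D2:**
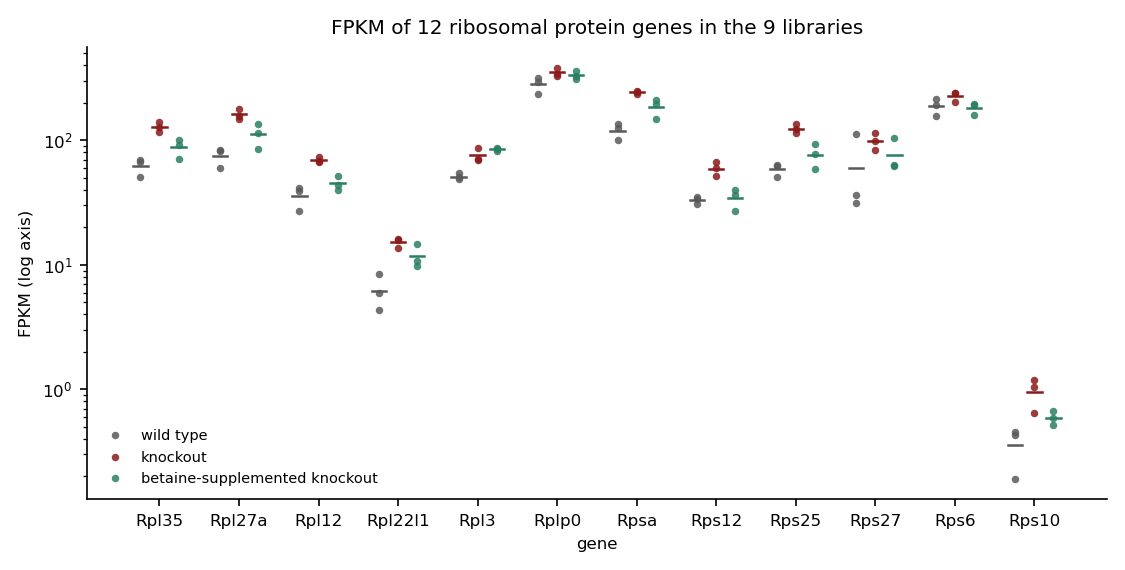
The vertical axis is FPKM on a log axis, points are single libraries and short lines group means, for 12 ribosomal protein genes in wild type, knockout and betaine-supplemented knockout. Rpl35, Rpl27a, Rpl12, Rpsa, Rps12 and Rps25 have all knockout points above all wild-type points, Rps27 and Rps6 have overlapping groups, and Rps10 is listed at 1.19 FPKM or less.

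Several members at high levels did not pass. Rplp0, the stalk base protein often used as a reference gene, was at 294, 316 and 238 FPKM in wild type and 385, 343 and 330 in knockout. The groups did not overlap, and the change was 0.33 ± 0.15 (limma adjusted p = 0.134). Rps6 was at 192, 214 and 156 FPKM in wild type and 241, 239 and 202 in knockout, with overlapping groups and a change of 0.28 ± 0.16 (limma adjusted p = 0.209). Rps4x, the X-linked small subunit protein, was at 124 to 132 FPKM in wild type and 131 to 143 in knockout, also overlapping (change 0.08 ± 0.12, limma adjusted p = 0.628).

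The 3 lowest changes were those of Rpl24, Rpl9 and Rps3. Rps3, a small subunit protein at the messenger RNA entry that also has a DNA repair role, was at 65.4, 68.4 and 55.9 FPKM in wild type and 59.4, 60.1 and 49.1 in knockout. The groups overlapped, and the change was -0.17 ± 0.13 (limma adjusted p = 0.366). Rpl9 was at 50.1, 54.0 and 42.7 FPKM in wild type and 44.8, 41.6 and 37.4 in knockout, also overlapping (-0.24 ± 0.13, limma adjusted p = 0.196). Rpl24 had only 12.1 recovered reads per library on average. Rpl5 and Rpl11 bind Mdm2 together with the 5S ribosomal RNA and thereby stabilise p53. Rpl11 rose by 0.87 ± 0.20 (limma adjusted p = 0.0162), from 54.5 to 79.3 FPKM in wild type to 117 to 140 in knockout. Rpl5 was at 49.6 to 63.9 FPKM in wild type and 52.2 to 62.3 in knockout, a change of 0.01 ± 0.14 (limma adjusted p = 0.962). The difference between these 2 genes was not tested.

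In knockout against wild type the members' median stayed above 0 under every scaling tried, but single genes did not. Rescaling the FPKM to 1 common sum per library (TPM) moved the median of all tested genes to -0.32, and the members' median was then 0.33, which is 0.66 above that of all genes. With TPM 37 members were called higher and 3 lower, Rpl5, Rpl9 and Rps3, where 4.93% of all tested genes were higher and 30.7% lower. Quantile normalization gave 41 higher and 2 lower, Rpl9 and Rps3, where 12.1% of all tested genes were higher and 13.7% lower. Rpl5 and Rps4x were below 0 under both scalings, at -0.41 and -0.34 with TPM, as were Rps6 under both and Rplp0 with TPM. Scaling to each library's recovered read total gave 53 members higher and 1 lower (Rpl9), where 3121 of all tested genes were called in either direction. Higher and lower calls over all tested genes were not counted apart in this fit. The members' median was then 0.62, against -0.085 over all tested genes.

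**Figure D3:**
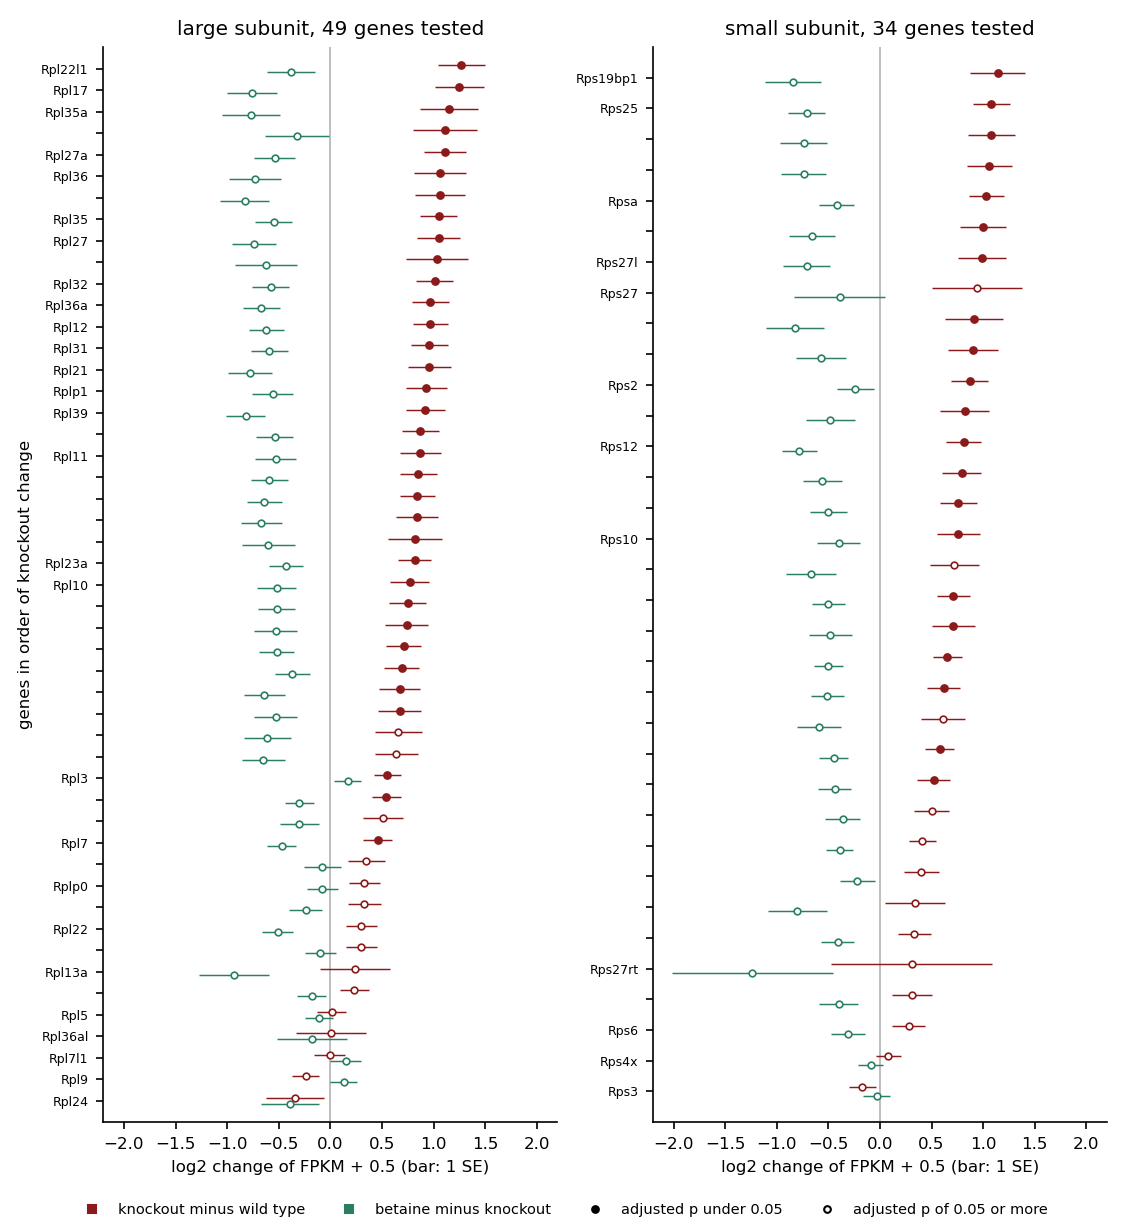
The horizontal axis is the log2 change of FPKM + 0.5 with bars of 1 SE, for 49 large and 34 small subunit names, in knockout minus wild type and betaine minus knockout, with genes ordered by their knockout change and those named in the text labelled. Filled points passed an adjusted p of 0.05; 55 knockout changes are filled, none of the betaine changes is, and 80 of the 83 betaine estimates lie below 0.

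Short transcripts as a whole were higher in knockout, so the members were set beside other genes of like exon length, meaning the union of a gene's exons. Members under 1000 bases had a median log2 change of 0.92 and other genes of that class 0.52 (n = 12 and 1245). Between 1500 and 2000 bases the medians were 0.72 and 0.32, with 17 of 19 members above the median of the other genes. Between 2500 and 3000 bases they were 0.75 and 0.15, with 9 of 9 above. From 3000 to 4000 bases they were 0.73 and 0.05, with 7 of 10 above. The members' medians were above those of the other genes in all 8 length classes, and the 2 members of at least 6000 bases had a median of 0.62 against -0.28. The union can be much longer than the messenger RNA. Over the 77 standard genes its median was 1781 bases, against 780 for the principal messenger RNA, and Rpl18 had 4043 and 679 bases. The principal messenger RNA of other genes was not measured, so members were not matched on it.

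Across genes, the Spearman correlation of the knockout change with exon length was -0.24 over the 83 members and -0.46 over 11766 other genes. These points share libraries and depth, and genes are not independent replicates. Members under 2000 bases had 31 of 47 higher (median 0.84), and longer members 24 of 36 (median 0.66). Of the other tested genes, 22.5% to 31.9% were higher in the length classes under 2000 bases. In the longer classes 3.2% to 19.9% of them were. After each library's trend on exon length was removed, estimated without the members, 36 members were higher and 0 lower, with a median of 0.49, where 9.26% of all tested genes were higher. With the trend estimated on all tested genes, 24 of 49 large and 12 of 34 small subunit genes were higher and 0 lower, where 9.21% of all tested genes were higher and 9.01% lower. Removing the trend and leaving out wild-type replicate 3 together gave 22 higher and 1 lower (Rpl9), with a median of 0.36, where 7.22% of all tested genes were higher and 8.14% lower. The part of length, RNA quality or library preparation in the change was not tested beyond these fits.

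**Figure D4:**
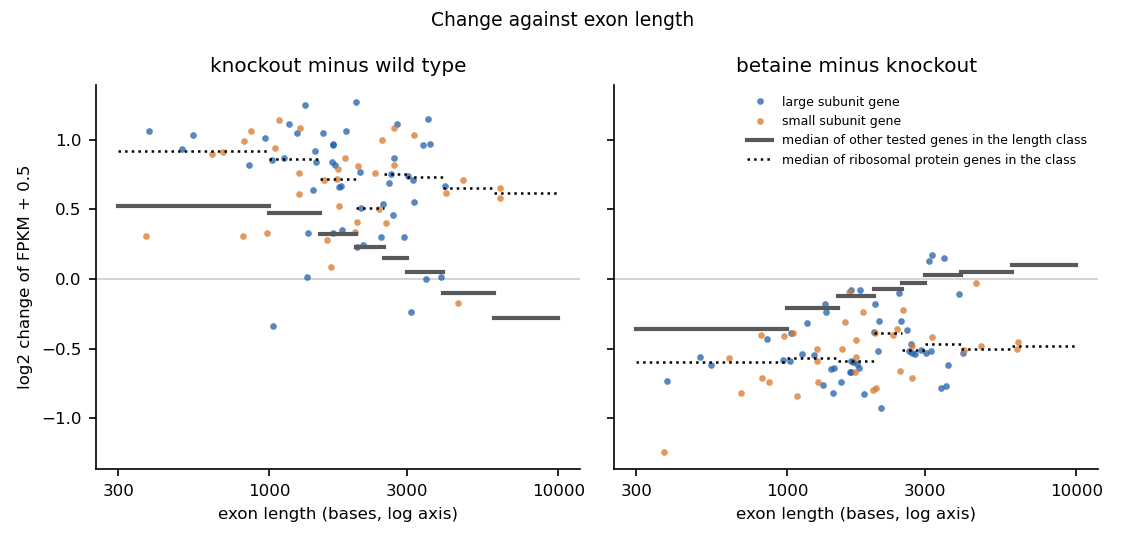
The vertical axis is the log2 change of FPKM + 0.5 and the horizontal axis exon length in bases on a log axis, for knockout minus wild type and betaine minus knockout. Points are members, grey lines the class medians of other tested genes and dotted lines those of the members; the dotted lines lie above the grey ones in all 8 classes on the left and below them on the right.

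Betaine supplementation was compared with knockout on plain drinking water. None of the 83 members passed (limma, adjusted p under 0.05; 0.0253% of all tested genes fell and 0.0169% rose), and the lowest adjusted p was 0.0837. At an unadjusted p under 0.05, 55 members were lower and 0 higher, where 11.0% of all tested genes were lower and 11.6% higher. The median log2 change was -0.52 (large -0.53, small -0.50), against -0.002 over all tested genes. Betaine values lay below all knockout values for 56 members, which held for 14.7% of all tested genes. This comparison shares its knockout libraries with the one against wild type, so the values are not independent of it.

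Rps12 had the smallest p of the members, with 39.9, 27.3 and 36.4 FPKM on betaine against 51.3, 59.8 and 66.9 in knockout. The groups did not overlap, and the change was -0.78 ± 0.17 (limma adjusted p = 0.0837). Rpl39, a very short protein of the exit tunnel, was at 74.1, 49.0 and 61.7 FPKM on betaine and at 124, 114 and 89.0 in knockout. Its change was -0.82 ± 0.19 (limma adjusted p = 0.0903), and that of Rps25 was -0.71 ± 0.18 (limma adjusted p = 0.0963). Rpl3, which lies next to the peptidyl transferase centre, went the other way in its estimate, from 87.4, 70.7 and 69.3 FPKM in knockout to 85.7, 82.3 and 86.4 on betaine. Those groups overlapped (0.17 ± 0.13, limma adjusted p = 0.458).

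Betaine replicate 1 was nearer to the knockout libraries than the other betaine libraries, with a member median of 0.44 above wild type against -0.07 and 0.28. Without it 17 members were called lower, among 3.40% of all tested genes called lower. Without wild-type replicate 3, 2 were lower (Rpl12 and Rps12), where 1.22% of all tested genes were. With TPM, which moved the median of all tested genes to 0.30, 2 members were called higher, Rpl3 and Rpl9, and 0 lower. In that fit 13.5% of all tested genes were higher and 0.624% lower, so the members' share of higher calls was below that of all genes. Scaling to each library's recovered read total moved the median of all tested genes to 0.16, with a members' median of -0.34 and no member called (54 of all tested genes were higher and 13 lower). Other genes under 1000 exon bases had a median of -0.36 and members of that class -0.60, and from 3000 to 4000 bases the medians were 0.03 and -0.47.

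Against wild type, betaine-supplemented knockout had 3 members higher and 0 lower, where 5.87% of all tested genes rose and 5.78% fell (limma, adjusted p under 0.05), and the members' median log2 change was 0.22. That median was 0.093 without wild-type replicate 3, 0.11 without betaine replicate 1 and 0.36 without betaine replicate 2. Rpl3 was at 48.8, 50.5 and 54.5 FPKM in wild type and 82.3 to 86.4 on betaine, with no overlap, a rise of 0.72 ± 0.13 (limma adjusted p = 0.0117). Rpl22l1 was at 5.94, 8.39 and 4.31 FPKM in wild type and 14.8, 10.7 and 9.76 on betaine, a rise of 0.89 ± 0.23 (limma adjusted p = 0.0375). Rpsa rose by 0.61 ± 0.17 (limma adjusted p = 0.0464). None of the 3 was kept in every fit that left out 1 library. For Rpl3 the exception was the fit without betaine replicate 3 (limma adjusted p = 0.0506). Of these 9 fits, Rpl22l1 passed in the one without wild-type replicate 2 (limma adjusted p = 0.0286), and Rpsa in the one without betaine replicate 2 (limma adjusted p = 0.0251). With the length trend removed, Rpl3 alone was called, at 0.65 (limma adjusted p = 0.0134), where 5.13% of all tested genes were higher.

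Some members have paralogs. Rpl22l1, a paralog of Rpl22 that can replace it in the ribosome, had the highest change of all members in knockout, at 1.27 ± 0.23 (limma adjusted p = 0.00792). Its knockout values were 16.0, 16.1 and 13.6 FPKM, above all wild-type values. Rpl22 itself was at 30.7, 33.4 and 30.7 FPKM in wild type and 43.4, 43.4 and 31.6 in knockout, with a change of 0.30 ± 0.15 (limma adjusted p = 0.157). On betaine Rpl22 was at 25.3 to 29.8 FPKM, below all libraries of both other groups. The next highest changes in knockout were those of Rpl17 and of Rpl35a, which rose by 1.15 ± 0.28 (limma adjusted p = 0.0196), from 12.3 to 28.7 FPKM in wild type to 39.1 to 47.8 in knockout. Rps27l, a paralog of Rps27 and a known p53 target, rose by 0.99 ± 0.23 (limma adjusted p = 0.0166), from 102 to 166 FPKM in wild type to 258 to 289 in knockout.

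Rpl7 rose by 0.46 ± 0.14 (limma adjusted p = 0.041), from 111 to 112 FPKM to 147 to 158, while its paralog Rpl7l1 was at 16.9 to 18.7 FPKM in wild type and 16.6 to 21.0 in knockout (limma adjusted p = 0.988). Rpl10 rose by 0.77 ± 0.19 (limma adjusted p = 0.0187), and Rpl10l, its testis paralog, is listed at 0 in every library. Rpl39 rose by 0.92 ± 0.19 (limma adjusted p = 0.012), and Rpl39l, also a testis paralog, had 0.0787 FPKM in 1 wild-type library and 0 elsewhere. Rpl3l, a paralog of heart and skeletal muscle, reached 0.263 FPKM at most. Rpl36a rose by 0.97 ± 0.18 (limma adjusted p = 0.00862). Its paralog Rpl36al, at 0.132 to 1.27 FPKM, overlaps over 63.1% of its principal messenger RNA with another annotated gene listed at 0, so its level is uncertain.

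Other members also share bases with neighbouring genes. On the opposite strand, Rpl35 shares 68.3% of its principal messenger RNA with Wdr38 (mean 0.065 FPKM), Rps25 52.2% with Trappc4 (4.99 FPKM) and Rpl23a 55.4% with Tlcd1 (3.98 FPKM). For Rpl5 the share was 46.6% with Fam69a (2.71 FPKM). Whether strand was used in counting is not given, and without it reads from both strands cannot be told apart, so these levels are uncertain. On the same strand, Rpl24 shares 71.5%, Rpl13a 59.3% and Rps10 53.6% of the principal messenger RNA with a gene listed at 0.

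Ribosomal protein genes have many processed pseudogenes, and reads of the 2 cannot always be told apart. Of the 86 members, 79 had a copy elsewhere in the genome of at least 95% identity over at least 50% of the coding sequence. There were 570 such copies, 556 of them annotated as pseudogenes, and 167 reached a mean of 0.5 FPKM. A copy that is itself a member, such as the retrocopy Rps27rt of Rps27, was not counted among them. Of these 167, 52 rose and 0 fell in knockout, with a median log2 change of 0.49, where 12.8% of all tested genes rose and 12.7% fell. The copies were not matched for exon length. Tested genes under 1000 exon bases that are not members had a median of 0.52, with 22.5% higher. In 23 members at least 10% of the family's reads were assigned to copies, and in 4 the copies held more reads than the gene: Rps10 (98.1%), Rpl21 (92.8%), Rpl24 (82.7%) and Rpl17 (69.3%). The levels and changes of these 4 are therefore uncertain. The share and family sum of Rpl21 count every read of BC004004, a protein-coding gene of 19180 exon bases at 17.7 FPKM. Its match covers only the 480 coding bases of Rpl21, so the 92.8% overstates the reads that Rpl21 could share. The coding sequences of Rps10 on chromosome 17 and of its copy Rps10-ps2 on chromosome 16 (chr16:20822145-20822640, minus strand, GRCm38) differed at 5 of 495 bases. Bases 379 to 408 of the coding sequence are shown, with differing bases in capitals, because they show how few bases could assign a read.
Rps10: tacagaaggagcgcTgtgccccctggagcT
Rps10-ps2: tacagaaggagcgcCgtgccccctggagcC

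Rps10 was listed at 0.192, 0.453 and 0.431 FPKM in wild type and 0.640, 1.04 and 1.19 in knockout (0.76 ± 0.21, limma adjusted p = 0.0311), while Rps10-ps2 averaged 142 FPKM. With the reads of the family summed, the change of Rps10 was 0.51 (limma adjusted p = 0.0777) and was no longer called. Rpl17 rose by 1.25 ± 0.24 alone (limma adjusted p = 0.00954), and by 0.84 as a family (limma adjusted p = 0.0114). Rpl24 went from -0.34 alone to 0.51 as a family (limma adjusted p = 0.156). Over all members, summing families gave 56 higher, of which 54 were called alone, where 12.6% of all tested genes were higher. The 62 members with under 10% of family reads in copies had 39 of 60 tested higher (median 0.71). This set includes Rps27 and Rps27rt, because copies that are members themselves were not counted or summed.

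**Figure D5:**
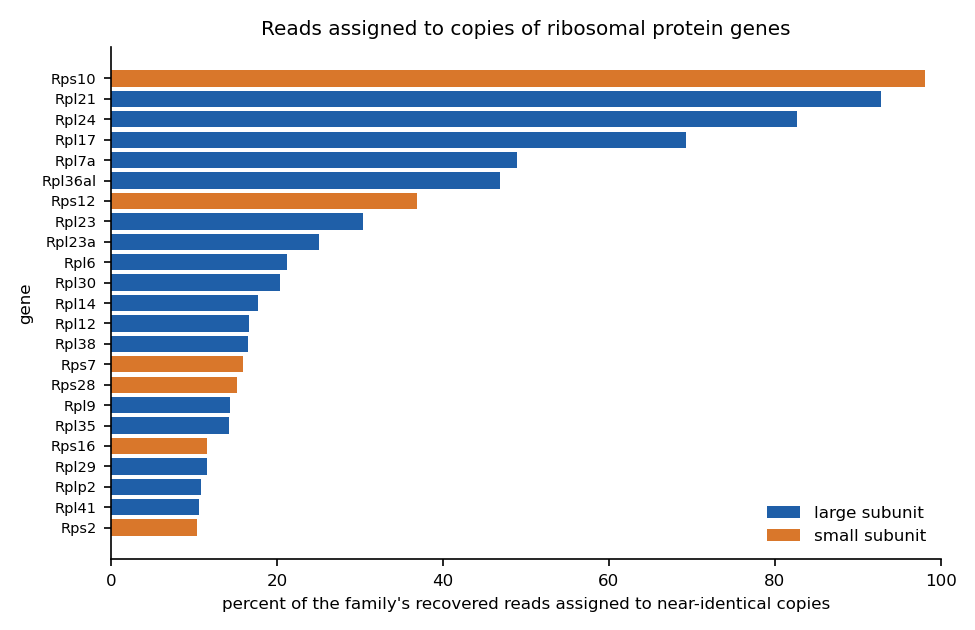
The horizontal axis is the percent of a family's recovered reads assigned to near-identical copies elsewhere in the genome, and the vertical axis lists the 23 ribosomal protein genes with at least 10%. Copies that are members themselves are not counted. Bars run from 10.4% for Rps2 to 98.1% for Rps10, and only 4 pass 50%. The Rpl21 bar counts every read of BC004004, a protein-coding gene of 19180 exon bases, and is too high.

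Rps27 and its retrocopy Rps27rt have coding sequences that are identical over all 252 bases, and the split of reads between them varied within groups. The share assigned to Rps27rt was 13.2%, 68.4% and 64.8% in wild type, 59.6%, 41.3% and 13.3% in knockout and 14.4%, 23.4% and 34.4% with betaine. Rps27 alone was at 112, 36.8 and 31.3 FPKM in wild type and 82.9, 98.7 and 114 in knockout (0.94 ± 0.44, limma adjusted p = 0.139). As fragments of both genes together, scaled to library size but not to length, the values were 134, 121 and 92.9 in wild type, 214, 175 and 137 in knockout and 127, 84.7 and 101 with betaine. All 3 knockout sums were above all 6 others.

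Among the matched members, those with a TOP-like start had a median knockout change of 0.75 (15 of 24 higher) and those without 0.71 (24 of 39 higher). Of the other tested genes, 10.9% with such a start and 12.4% without were higher. Because the annotated starts are not measured ones, this split cannot tell members with a TOP tract from those without. Larp1, which binds TOP tracts, fell by 0.65 on the log2 scale (SE 0.12, limma adjusted p = 0.00872), from 30.5 to 33.3 FPKM in wild type to 18.8 to 21.2 in knockout. Of the 23 tested genes in the list of growth signalling to ribosomes, 7 fell and 1 rose, where 12.7% of all tested genes fell and 12.8% rose. Those that fell included Eif4ebp2, a repressor of cap-dependent initiation (-0.66 ± 0.11, limma adjusted p = 0.00678), and Deptor, an inhibitor of mTOR (-1.04 ± 0.21, limma adjusted p = 0.0104).

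Other genes of translation were counted beside them. Over all tested genes, 12.8% rose and 12.7% fell in knockout. None of the gene lists outside the members was set beside genes of like exon length. Of 35 initiation factors 6 rose and 5 fell in knockout, with a median log2 change of -0.02. Eif3k rose by 0.89 ± 0.17 (limma adjusted p = 0.00969), while Eif4b, another TOP messenger RNA, was lower at -0.70 ± 0.13 (limma adjusted p = 0.00861). Of 12 elongation and termination factors 2 rose and 4 fell. Eef2, the translocase, went from 613, 633 and 496 FPKM in wild type to 393, 370 and 350 in knockout, with no overlap (-0.64 ± 0.14, limma adjusted p = 0.0135).

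Of 58 nucleolar genes for ribosomal RNA processing and assembly, 6 rose and 6 fell (median -0.01). Among all tested genes 12.8% rose and 12.7% fell. Nhp2, a protein of the box H/ACA particles, rose by 1.08 ± 0.19 (limma adjusted p = 0.00792), and Imp4, of the early small subunit processome, was lower at -0.83 ± 0.18 (limma adjusted p = 0.0132). Of 17 genes of RNA polymerase I and 5S transcription 1 rose, and of 7 tested snoRNA host genes none passed. Of 13 genes of ribosome rescue 1 rose, Edf1 (1.11 ± 0.23, limma adjusted p = 0.0112), and 2 fell, Ltn1 and Ascc3. Of the 9 tested ribosome-associated genes, including those that encode a ribosomal protein fused to a ubiquitin-like domain, 3 rose. They were Tpt1, Btf3 and Fau, which encodes a small subunit protein (0.70 ± 0.22, limma adjusted p = 0.046).

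Genes of 3 other large complexes were counted for comparison. Of 77 mitochondrial ribosomal protein genes 41 rose and 0 fell in knockout (median 0.59), of 78 nuclear oxidative phosphorylation subunits 63 rose and 0 fell (median 0.94), and of 37 proteasome subunits 13 rose and 1 fell (median 0.32). Among all tested genes 12.8% rose and 12.7% fell. These 3 lists were not set beside genes of like exon length, and the part of length in their changes was not tested. The mitochondrially encoded transcripts, a measure that can move with RNA quality, summed to 37580 to 43500 FPKM in wild type, 74410 to 87400 in knockout and 36370 to 63000 with betaine. Of these 13 genes 8 rose in knockout. Of the 8 hepatocyte markers 2 rose and 3 fell in knockout (median -0.24). Their sums were 46310 to 64450 FPKM in wild type, 39300 to 51120 in knockout and 31790 to 43810 with betaine, so that the betaine libraries lay wholly below wild type. The part of the mitochondrial and hepatocyte transcripts in the change of the ribosomal proteins was not tested. Markers of macrophages, lymphocytes, neutrophils, stellate cells, bile duct, red cells and pancreas had no gene called in knockout against wild type, with Cpa1 and Pnlip at 0 throughout, while 1 of 6 sinusoidal endothelial markers fell. Only 4 of 9 lymphocyte, 2 of 5 neutrophil and 2 of 6 pancreas and gut markers reached the level to be tested.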

How the data were processed

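The authors deposited 1 FPKM value per gene and library, with no counts. Named in the submitters' processing notes, without roles, are mm10, DESeq2 1.16.1, featureCounts 1.5.0-p3 and HISAT2 2.0.5. Libraries were NEBNext Ultra from poly-T beads, per the labels' protocols, and strand handling is not given in the sources used here. Symbols, exon lengths and biotypes came from GENCODE M21 (GRCm38, the assembly of mm10) for 54495 of 54532 genes. Dividing by them, values worth 20 reads or fewer came within 0.05 of a whole read in 98.3% to 98.6% of cases. The denominators this gave (13513034 to 18527795) differ from the recovered read totals. For 1 kb of exon, 3 reads correspond to 0.162 to 0.222 FPKM, which covers counting error alone.

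The 11852 genes averaging 0.5 FPKM or more were fitted as log2(FPKM + 0.5) with limma 3.58.1 in R 4.3.3 (lmFit, eBayes with trend and robust), 3 groups in 1 fit, without a replicate block. Tests were two-sided with Benjamini-Hochberg adjustment per comparison at 0.05. Such changes understate those of low genes. Copies were found with blastn 2.17.0. The length trend was a loess (span 0.5) per library. The fit was tested on simulated data. Python 3.11.15, pandas 2.3.3 and matplotlib 3.10.9 were used.

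Named genes were, per comparison and subunit, the 4 called members with the smallest p, the 2 highest and 2 lowest in level, the 3 highest and 3 lowest knockout changes, 7 paralog pairs, Rpl5, Rpl11, Rps6, Rplp0 and Rps4x, and up to 3 called genes per pathway list. Members, lists and tests were chosen with earlier results of these data known. Rps12, Rpl39 and Rps25 in the betaine comparison, Rpl21, Rps27rt and the overlapping genes were chosen after their values were seen. 1 gene that this rule gives is not reported here.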

Additional observations from a re-analysis of the deposited data

How the results depend on the processing

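The count of members called in knockout against wild type (55) became 36 with the exon length trend removed, estimated either without the members or on all tested genes, and 23 with wild-type replicate 3 also left out. The median change (0.75) became 0.33 with TPM, 0.47 with quantile normalization, 0.49 under both removals of the length trend and 0.36 with wild-type replicate 3 also left out. Leaving out 1 library at a time gave 13 to 60 calls, in fits that called 897 and 3243 of all tested genes. The main fit called 3029. For betaine against knockout (0 calls, median -0.52) TPM gave 2 calls and a median of -0.17, the length trend with wild-type replicate 3 left out gave 1 call, and leaving out 1 library gave 0 to 17. Over all tested genes the TPM fit called 1673, that length trend fit 204 and the fit with 17 member calls 882. The main fit called 5. For betaine-supplemented knockout against wild type (3 calls, median 0.22) there was 1 call with no filter on low values, with the 2 groups alone and under both removals of the length trend. TPM gave 6 and the own read total 7. Over all tested genes these fits called 531 (no filter), 353 (2 groups), 1102 and 1106 (length trend), 1086 (TPM) and 1515 (own read total). The main fit called 1381. Leaving out 1 library gave 0 to 5, in fits that called 347 and 1439 of all tested genes. The length trend with wild-type replicate 3 left out turned the median to -0.023. With the replicate number as a block 50, 0 and 2 members were called in the order of the comparisons, where 2210, 0 and 671 of all tested genes were. Deviations of same-numbered libraries from their group means correlated at 0.049 to 0.098 between wild type and knockout (other pairs -0.087 to 0.001). Between wild type and betaine the values were -0.124 to -0.095 (other pairs -0.043 to 0.156). Between knockout and betaine they were -0.227 to -0.028 (other pairs -0.137 to 0.263). With 3 libraries per group, these correlations cannot decide whether the numbers pair the samples.

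Of the named members in knockout against wild type, none called changed sign; uncalled ones did. With TPM the change was -0.094 for Rplp0, -0.13 for Rps6, -0.34 for Rps4x, -0.41 for Rpl5, -0.11 for Rpl22 and -0.24 for Rpl36al. With quantile normalization it was -0.055 for Rps6, -0.26 for Rps4x, -0.26 for Rpl5 and -0.023 for Rpl36al. With the length trend estimated without the members it was -0.055 for Rps6, -0.25 for Rps4x and -0.36 for Rpl36al, and on all tested genes -0.0054 for Rplp0, -0.063 for Rps6, -0.26 for Rps4x and -0.37 for Rpl36al. With wild-type replicate 3 also left out it was -0.074 for Rplp0, -0.13 for Rps6, -0.23 for Rps4x, -0.046 for Rpl5 and -0.44 for Rpl36al. The own read total gave -0.045 for Rps4x, -0.12 for Rpl5 and -0.064 for Rpl36al, a pseudocount of 1 gave -0.00028 for Rpl36al, and the family sum 0.51 for Rpl24. Leaving out 1 library gave -0.077 to 0.1 for Rpl5, -0.11 to 0.054 for Rpl7l1 and -0.11 to 0.25 for Rpl36al. The cause was not tested. The family sum, the own read total and the trend on all genes were chosen after seeing the data. Levels under about 1 FPKM rest on few reads.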
